A study of Mus musculus with 14 samples.

Results

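The cytosolic ribosomal protein genes were described in the livers of C57BL/6N mice on 3 diets. They were taken as every gene row of the deposited table whose symbol is Rpl or Rps followed by a number, with an a, x, y or l where one follows, together with Rplp0, Rplp1, Rplp2 and Rpsa, and without the kinases of the Rps6k family. This gave 84 of 22850 rows, 51 of the large subunit and 33 of the small subunit. The symbols chose the rows and no measured value did. RNA sequencing covered 5 livers of animals on a fat-rich Western diet plus sugared water (HFWD+sugar), 5 of animals on that diet with plain water (HFWD) and 4 of animals on standard chow. All mice were C57BL/6N and changed to their diet at 7 weeks of age. Both Western diets gave 40% of energy as fat and chow about 12%, and the sugar, a mix of fructose and sucrose, was given at 42 g/L. Sex and time on the diet are not in the labels, which also do not state that each library is a separate animal, so p-values may reflect the spread between samples alone. A mouse is named by its diet and a number, which pairs nothing across diets.

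A cytosolic ribosome has a small subunit, which reads the mRNA, and a large subunit, which joins the amino acids, and each is built of ribosomal RNA and a set of ribosomal proteins. The mRNAs of these proteins are among the most abundant of most cells. They open with a terminal oligopyrimidine tract, a run of C and T letters at the cap, through which the nutrient-sensing kinase complex mTORC1 controls how well they are translated, so that a change in their translation need not show in their mRNA level.

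Of the 84 genes, 62 were found in the RefSeq table of transcription starts, whose build, GRCm38.p6, is not that of the expression table. In the 30 bases around the start, 15 before it and 15 from it, 27 of the 62 genes (43.55%) held an unbroken run of at least 8 C or T letters on the strand of the gene, against 13.84% of 26963 other genes. On the other strand 3 of the 62 (4.839%) held such a run, against 15.28% of the other genes. The motif CCGGAAG, searched on both strands of the 300 bases from 250 before to 50 after the start, was found in 25 of the 62 genes (40.32%) and in 9.858% of the others. The same search found TATAAA in 7 of the 62 (11.29%) and in 15.68% of the others. It found GCCATC in 15 of the 62 (24.19%) and in 15.85% of the others. A match is a description of these letters only. The start windows below are those of the 4 genes that passed the test against chow, of Rplp2, the row with the highest level in units, and of Rpl35 and Rpl24, whose C and T runs are long and short. The capitals mark the longest run of C and T letters in each window.
Rpl12, chr2:32961697-32961726, plus strand: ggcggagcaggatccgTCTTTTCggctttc
Rpl35a, chr16:33056467-33056496, plus strand: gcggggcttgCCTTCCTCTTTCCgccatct
Rpl31, chr1:39367836-39367865, plus strand: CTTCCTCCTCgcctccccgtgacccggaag
Rpl28, chr7:4792950-4792979, plus strand: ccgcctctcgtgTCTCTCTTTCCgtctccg
Rplp2, chr7:141447636-141447665, plus strand: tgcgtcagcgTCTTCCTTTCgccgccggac
Rpl35, chr2:39005117-39005146, minus strand: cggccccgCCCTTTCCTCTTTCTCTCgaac
Rpl24, chr16:55966260-55966289, plus strand: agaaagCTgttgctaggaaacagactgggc
The run is 18 letters long in Rpl35, 13 in Rpl35a, 11 in Rpl28, 10 in both Rpl31 and Rplp2, 7 in Rpl12 and 2 in Rpl24. Rpl35a has 3 listed starts, and the one with the longest run is shown. Of the 4 genes that passed, Rpl35a, which rose, and Rpl31 and Rpl28, which fell, meet the length of 8 used above, and Rpl12, which rose, does not.

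The deposited values are normalized units per gene, not divided by gene length, with a lowest value of 1. The most frequent low value above the floor in each library, taken as the worth of 1 read, was 2.47 to 6.85 units. By this estimate the libraries held the equivalent of 3.77 (chow 4) to 9.34 M reads, with 5.84 M in HFWD 1. Smaller values above the floor also occur, so these read numbers are approximate. The main fit used no sample weights. In an alternative fit with them, chow 4 and chow 2 had the lowest (0.349 and 0.444), so results against chow were also computed without both. Of markers for liver cells, the summed level of 11 hepatocyte genes was 247062 to 325870 units in HFWD+sugar, 277724 to 519247 in HFWD and 347112 to 786983 in chow. Fgb, a fibrinogen chain, made up 94.3% of that sum, and the other 10 genes summed to 17113 to 25871 units in HFWD+sugar, 15835 to 23311 in HFWD and 19914 to 24605 in chow. Over all livers Fgb averaged 352956 units, beside 3036 for Alb, 1156 for Ttr and 131 for Serpina1a. Of these 11 hepatocyte genes 2, the urea cycle enzymes Cps1 and Ass1, fell in HFWD+sugar against chow, where 3.38% of all tested rows fell. In HFWD against chow 1 of the 11, Cps1, fell, where 0.934% of all rows fell. The 10 T, NK and B cell markers summed to 45.3 to 72.8 units in HFWD+sugar, 26.7 to 56.8 in HFWD and 10 to 38.1 in chow, where 8 of the 10 averaged under 10 units and 3 were at 1 in every liver. Cd3d made up 46.8% of that sum. The other 9 summed to 21.0 to 37.5 units in HFWD+sugar, 16.3 to 27.3 in HFWD and 9 to 30.4 in chow, which overlap. None of the 3 tested markers of this list was called in HFWD+sugar against chow. The sums of 11 macrophage, 8 endothelial, 9 stellate, 5 cholangiocyte, 6 erythroid, 5 neutrophil and 4 proliferation genes overlapped between all 3 diets, although 76.2% of the macrophage sum was Csf1r. In HFWD+sugar against chow the macrophage genes Cd5l and C1qa and the stellate gene Col3a1 rose (2 of 11 and 1 of 9). Of all tested rows 5.67% rose in that comparison. Without Alas2 the other 5 erythroid genes summed to 34.9 to 70.4 units in HFWD+sugar, 28.4 to 111.9 in HFWD and 12.3 to 30.4 in chow. Fewer cells of a type and less RNA per cell cannot be told apart in these bulk samples, and the part of either in the results below was not tested. The origin of the reads of the marker rows was not tested either, so no sum was read as the amount of a cell type.

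The levels of the members ran from the floor of the table to 8692 units. Over the 14 livers, 29 rows averaged 400 units or more (19 large, 10 small; 444 to 8692 units), 6 rows averaged 110 to 249 units, 28 rows averaged 10.2 to 90.5 units, and 21 rows averaged under 10 units. Per kb of exon, the highest large subunit rows were Rpl36 (14148 units per kb), Rpl37 (6040), Rpl31 (4236) and Rplp2 (4195), the last a protein of the stalk that binds the elongation factors. The highest small subunit rows per kb were Rps14 (5317), Rps27l (4911), Rps2 (3889), a protein beside the mRNA entry, and Rps16 (3675). Rps27l is a paralogue of Rps27 that p53 is known to induce. At the other end, Rps13, Rps23, Rps29, Rpl36a, Rpl10l and Rpl39l were above the floor of 1 in fewer than 4 libraries and were not tested, which left 78 tested rows, 48 large and 30 small. Rpl10l and Rpl39l, paralogues known from testis, were at 1 in all 14 livers. Rps13, Rps23 and Rps29, which belong to the usual set of small subunit proteins, averaged 0.849, 2.11 and 2.47 units per kb, beside 5317 for Rps14 of the same subunit. The level of a row was therefore not taken as that of the mRNA it is named for.

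Rows beside the low members, on the opposite strand, were often high, and so were those beside other low rows. Per kb of exon, the nearest was higher than the member in 35 of 54 members below 400 units (64.8%). For other rows at 10 to 400 units the share was 60.6%. The nearest row was over 10 times higher in 29 of the 54 (53.7%), against 41.3% of those other rows. The lower cut at 10 units was not put on the members, of which 21 averaged under 10 units. The examples that follow were picked. The row of Rps6, the small subunit protein that S6 kinases phosphorylate, averaged 42.1 units per kb, while that of Dennd4c, 4.057 kb away on the other strand, averaged 6522 units per kb. Rps3, a small subunit protein at the mRNA entry, had 25.1 units per kb and its neighbour Klhl35, 3.874 kb away, had 6351. Rpl8 had 84.1 and Zfp647, 4.533 kb away, had 8775 units per kb. Rpl10 had 4.42 and Dnase1l1, 0.082 kb away, had 3829 units per kb.

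How often a neighbour was higher depended on the scale. In units as deposited, the nearest opposite-strand row was higher than the member in 52 of 84 cases (61.9%), against 46.7% of other rows with a mean of at least 10 units. Per kb of exon, the nearest opposite-strand row was higher than the member in 40 of 83 members with a known length (48.2%), against 47.2% of 10890 other rows with a mean of at least 10 units. It was over 10 times higher in 30 members (36.1%), against 28.0% of the other rows. The cut at 10 units was put on the other rows and not on the members, so these sets differ in level. Members at 400 units or more had an opposite-strand row within 1 kb in 19 of 29 cases (65.5%), against 57.2% of other rows at that level. Members below 400 units had one in 7 of 55 cases (12.7%), against 31.0% of other rows at 10 to 400 units, and 21 of these 55 members averaged under 10 units. The strand setting of the counting is not given in the sources used here. Where a member overlaps a row on the other strand, reads of the pair therefore cannot be told apart. The nearest opposite-strand row overlapped the member in 13 of 84 cases, and in 1 of the 55 below 400 units. For overlapping and for neighbouring rows alike, the origin of the reads of a row was not tested. For 83 members with a listed transcript, a median of 38.4% of their 100-base windows (0 to 99.6%) also occur elsewhere in the genome, as in processed pseudogenes, and how reads with several matches were treated is not given either. The median was 38.8% for the 29 rows at 400 units or more and 34.1% for 54 lower rows. A small nucleolar RNA gene lay within 30 of the 84 genes, 10 of the 29 higher and 20 of the 55 lower ones.

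**Figure D1:**
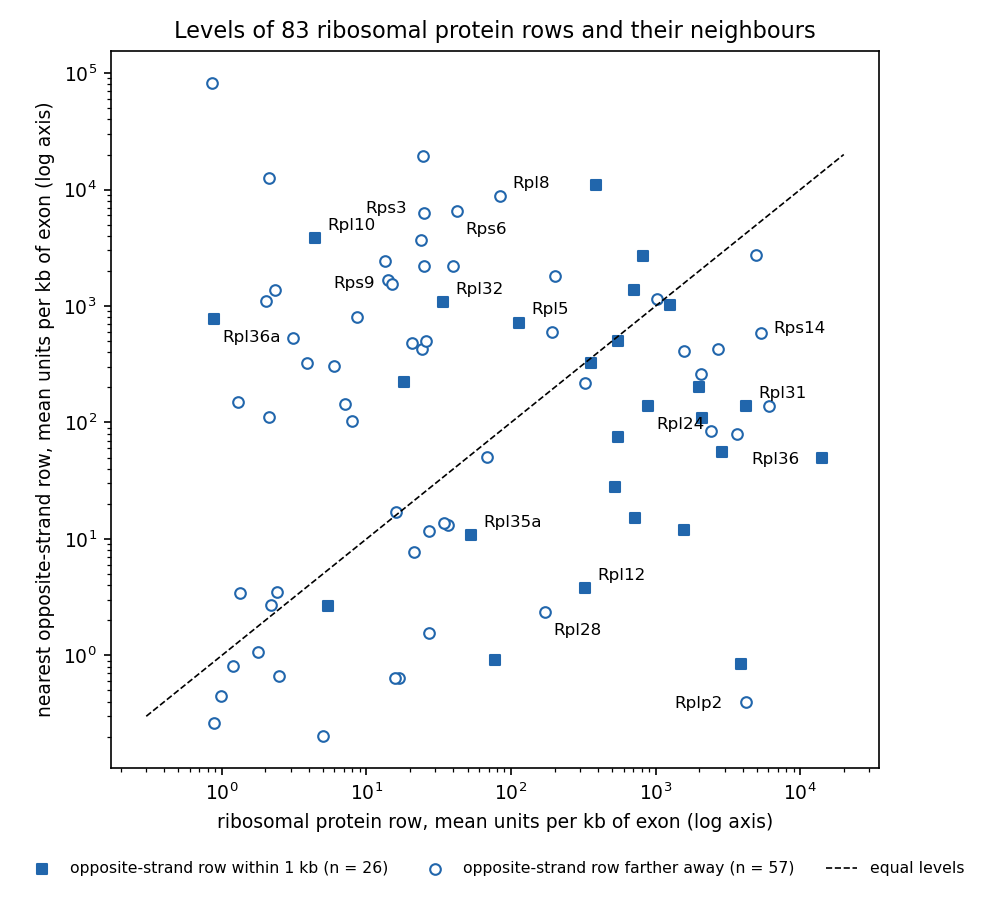
Mean level over 14 livers of 83 ribosomal protein rows (x axis) and of the nearest row on the opposite strand (y axis), both in units per kb of exon on log axes. Squares mark an opposite-strand row within 1 kb, and 40 of the 83 points lie above the dashed line of equal levels.

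Against chow, HFWD+sugar changed few ribosomal protein rows. Of 78 tested rows, 2 rose (Rpl12 and Rpl35a), 2 fell (Rpl31 and Rpl28) and 74 did not pass the threshold, an adjusted p of 0.05 from limma with Benjamini-Hochberg adjustment over all rows. The share called was 5.13% of the members, against 9.05% of all 14770 tested rows. Among all rows 5.67% were called higher and 3.38% lower. All 4 are large subunit genes, and none of the 30 small subunit rows was called (4 had an unadjusted p under 0.05). The median log2 difference was 0.02 over the large and -0.06 over the small subunit rows, against 0.12 over all tested rows. Without chow 4, Rplp2 and Rps21 also fell, with 1025 of all rows called higher and 743 lower. Without chow 2, Rpl27a also rose and Rps24 also fell, with 967 of all rows called higher and 535 lower. Among the 29 rows at 400 units or more, 22 lay within 0.25 of 0 on the log2 scale, with a median of -0.09, against -0.06 over 4126 rows at that level.

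Rpl12, a large subunit protein at the base of the stalk, was the clearest riser. Its row (chr2:32817079-32820016 in mm9, plus strand) had 1058, 968, 953, 962 and 1024 units in the HFWD+sugar livers, 903, 808, 765, 850 and 884 in the HFWD livers, and 589, 794, 680 and 675 in the chow livers. Every HFWD+sugar liver was above every HFWD and every chow liver, while HFWD and chow overlapped. The log2 difference of HFWD+sugar against chow was 0.54 ± 0.09 (SE), a 1.46-fold higher level, with a limma adjusted p of 0.0022. The opposite-strand gene Lrsam1 overlaps it, at 17.3 units on average, and 46.8% of its 100-base windows occur elsewhere. The call was lost under centring on library medians (0.33, adjusted p = 0.0698).

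Rpl35a, a large subunit protein whose human gene is mutated in Diamond-Blackfan anaemia, was the other. Its row (chr16:33056539-33060275, plus strand) had 177, 207, 212, 241 and 324 units in HFWD+sugar, 167, 143, 288, 257 and 160 in HFWD, and 115, 56.8, 93.5 and 154 in chow. All 5 HFWD+sugar livers were above all 4 chow livers. Its log2 difference was 1.20 ± 0.27 (2.29-fold; limma adjusted p = 0.0120), and 50.5% of its 100-base windows occur elsewhere in the genome.

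Rpl31, a large subunit protein beside the exit of the peptide tunnel, fell on both Western diets. Its row (chr1:39424696-39428753, plus strand) had 2770, 2018, 4791, 2120 and 2901 units in HFWD+sugar, 3081, 4446, 2440, 2657 and 3752 in HFWD, and 11124, 8110, 7674 and 3616 in chow. Chow 4, at 3616, lay within the range of both Western diets, and the other 3 chow livers lay above every Western diet liver. The log2 difference of HFWD+sugar against chow was -1.35 ± 0.28, a 2.55-fold lower level (limma adjusted p = 0.0077). Tbc1d8, which overlaps it on the other strand, averaged 616 units.

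Rpl28, a further large subunit protein, had the call nearest to the threshold. Its row (chr7:4744476-4746164, plus strand) had 182, 132, 212, 158 and 133 units in HFWD+sugar, 158, 159, 209, 133 and 191 in HFWD, and 296, 326, 246 and 190 in chow. Chow 4 again overlapped the Western diets. The log2 difference of HFWD+sugar against chow was -0.69 ± 0.19 (limma adjusted p = 0.0353). The call was lost without chow 1, 2 or 3 or HFWD+sugar 2, 4 or 5, with an adjusted p of up to 0.0926 (without chow 1).

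Rpl18, a large subunit protein, lay just outside the threshold. Its row had 3218, 3704, 2933, 3002 and 3086 units in HFWD+sugar, 2810, 3011, 2531, 2600 and 2647 in HFWD, and 2718, 2721, 2807 and 2168 in chow. The HFWD+sugar livers were above all chow livers, with a log2 difference of 0.29 ± 0.09 (limma adjusted p = 0.0591). Sphk2, which overlaps Rpl18 on the other strand, averaged 5707 units. In all, 6 of 78 members had HFWD+sugar and chow values that did not overlap, and 9.71% of all tested rows did. They included Rpl12, Rpl35a, Rpl18 and Rps19, higher, and Rpl24, lower. Rps19 and Rpl24 were picked here by this overlap and were not called (limma adjusted p = 0.0742 and 0.0879).

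Rplp2, the highest row in units, varied widely between livers. It had 7652, 6316, 8896, 5896 and 5667 units in HFWD+sugar, 7386, 10251, 5251, 5403 and 6607 in HFWD, and 8675, 22449, 15058 and 6179 in chow. The chow livers held both the highest value and one among the lower Western diet values. Its log2 difference of HFWD+sugar against chow was -0.77 ± 0.29 (limma adjusted p = 0.0992). Of the 29 rows at 400 units or more, the median coefficient of variation between livers was 7.91% in HFWD+sugar, 7.44% in HFWD and 13.0% in chow, with the highest value, 61.9%, in chow for Rpl27a.

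**Figure D2:**
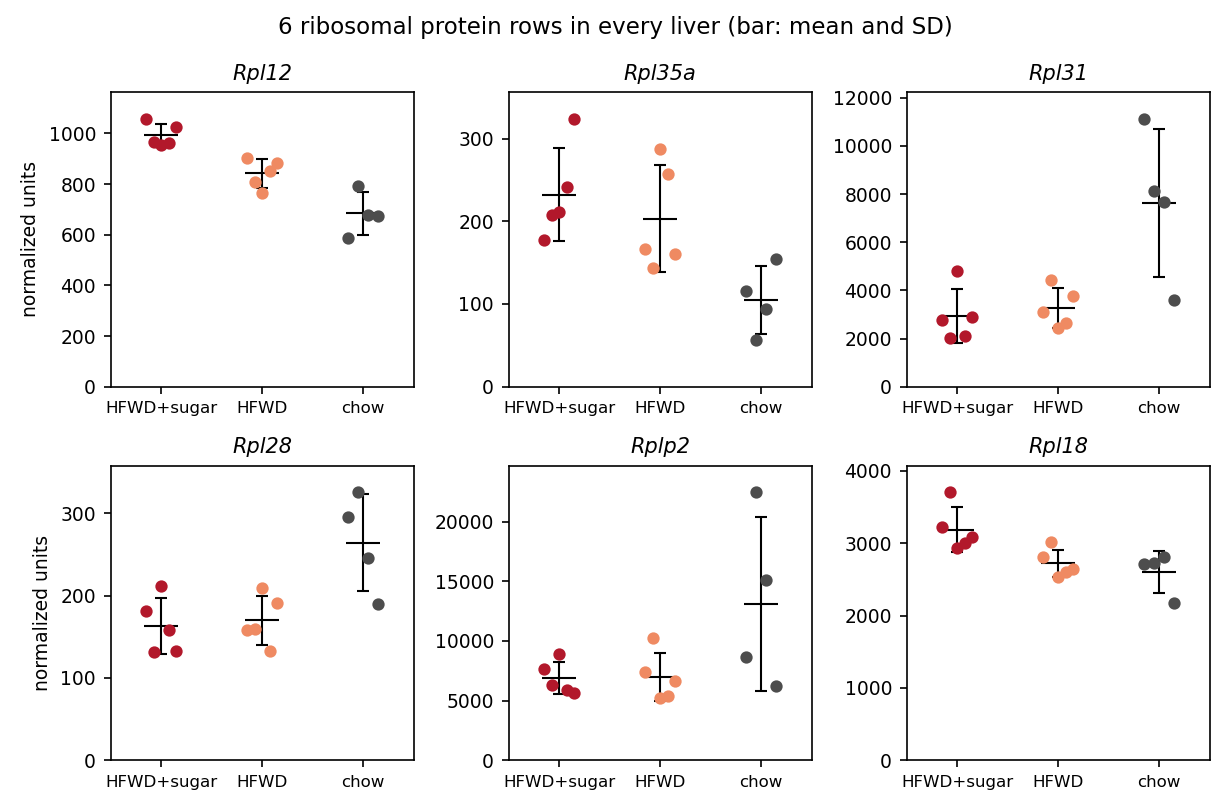
Normalized units of 6 large subunit rows in every liver, with HFWD+sugar (5 livers), HFWD (5) and chow (4) from left to right, as points with the mean and SD as bars. Rpl12, Rpl35a and Rpl18 were higher in every HFWD+sugar liver than in any chow liver, while chow 4 lay among the Western diet values of Rpl31 and Rpl28.

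On HFWD without sugar, 1 of 78 members was called against chow. Rpl31 fell (log2 difference -1.15 ± 0.28, 2.21-fold lower, limma adjusted p = 0.0325), which is 1.28% of the members, against 3.38% of all tested rows (2.44% higher, 0.934% lower). The call was lost without chow 1, 2 or 3 or HFWD 1, 3 or 4, with an adjusted p of up to 0.117 (without chow 1). Without chow 4, 5 of 78 members were called, Rpl28, Rpl31, Rplp2 and Rps25 lower and Rpl35a higher. Calls over all 14770 rows also grew in number then, to 709 higher and 342 lower. Without chow 2 only Rpl12 was called, higher, with 353 of all rows higher and 152 lower. The medians were -0.05 over the large and 0.02 over the small subunit rows, against 0.04 over all rows. Of the 29 rows at 400 units or more, 25 lay within 0.25 of 0 on the log2 scale. Both comparisons share the chow livers. Rpl12 had a log2 difference of 0.30 ± 0.09 (limma adjusted p = 0.0883), Rpl35a of 0.98 ± 0.27 (0.0580), Rpl28 of -0.62 ± 0.19 (0.0875) and Rplp2 of -0.78 ± 0.29 (0.162) for HFWD against chow. Rpl13a was the only tested member whose HFWD and chow values did not overlap, 1.28% of 78, against 5.84% of all rows, and it was not called (-0.38 ± 0.22, adjusted p = 0.422).

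Sugar in the drinking water, tested as HFWD+sugar against HFWD, changed no ribosomal protein row by limma with Benjamini-Hochberg adjustment (0 of 78), as it changed none of all 14770 rows (0%). At an unadjusted p under 0.05 there were 7 of 78 members (8.97%), against 1273 of all rows (8.62%). Medians were 0.12 over the large and -0.05 over the small subunit rows, against 0.05 over all rows. The highest by p were Rpl13 (1.23 ± 0.44, at 1 to 10.4 units in these 10 livers), Rpl12 (0.24 ± 0.09) and Rplp0 (0.77 ± 0.29), the lowest Rps24 (-0.26 ± 0.10), Rpl37 (-0.16 ± 0.07) and Rpl24 (-0.13 ± 0.06), with adjusted p from 0.549 to 0.595. For Rpl12 the 95% interval of the log2 difference was 0.05 to 0.43, and it was the only member whose HFWD+sugar and HFWD values did not overlap (1.28% of 78, against 2.2% of all rows).

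The scale of the libraries bears on these small differences. Centring each library on its median moved the median of all tested rows in HFWD+sugar against chow to -0.09 (0.12 as deposited), with 420 rows called higher and 1151 lower in place of 837 and 499. Under that scale 1 member was higher and 7 were lower, with Rpl24, Rpl37, Rplp2, Rps24 and Rps25 added to Rpl28 and Rpl31. Scaling by TMM factors gave 677 rows called higher and 676 lower, and the same 4 members. Relative values, to the median of all rows, were taken in HFWD+sugar against chow over 9 settings with the same filter. These include the main fit and the one without chow 2 and chow 4. The small subunit median ran from -0.18 to -0.10 and the large subunit median from -0.10 to 0.04. The 0.04 came without chow 2 and chow 4, and the next highest was -0.005, with sample weights. Centring on library medians and fitting 2 groups alone cannot move this relative value, which stayed at -0.18 for the small subunit. TMM factors also scale whole libraries, and gave -0.18. Those settings therefore do not test how stable it is. The small subunit value was -0.07 over rows with a mean of at least 50 units and -0.04 with no filter, and ran from -0.21 (without HFWD+sugar 3) to -0.14 (without chow 4) when 1 liver was left out.

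**Figure D3:**
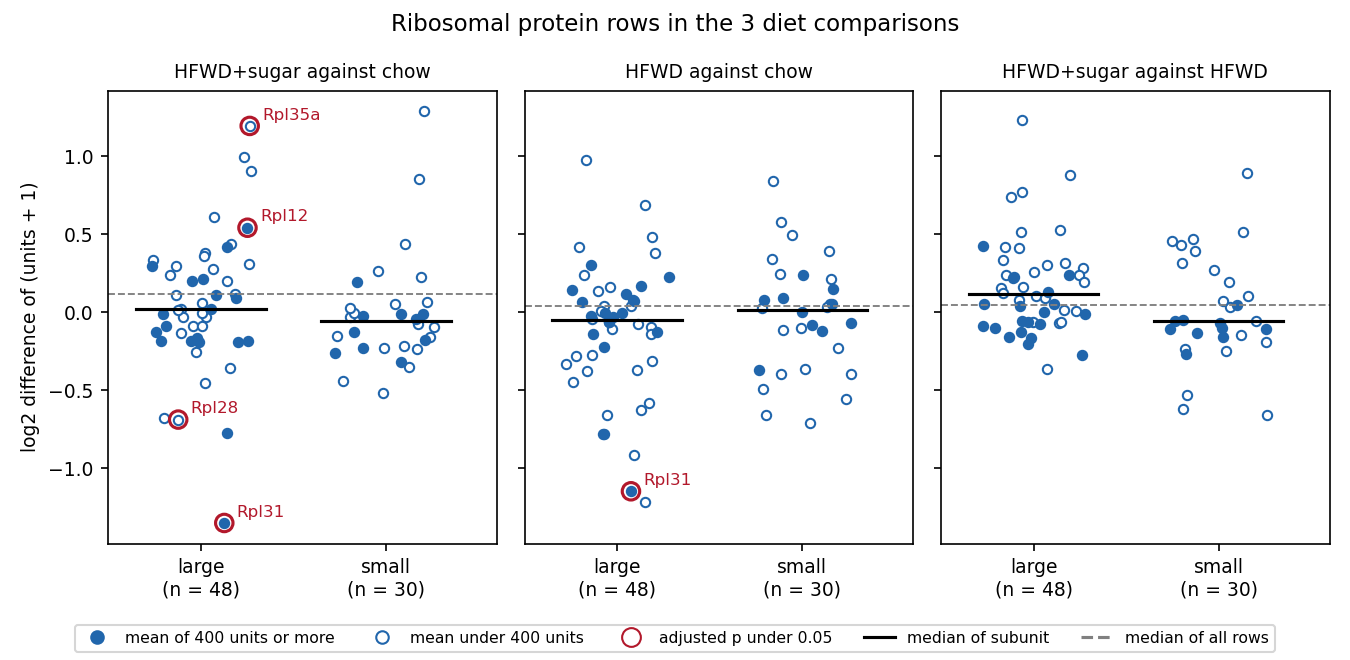
Log2 difference of (units + 1) of 48 large and 30 small subunit rows in the 3 comparisons. Filled points average 400 units or more, red rings mark an adjusted p under 0.05, black bars are subunit medians and the dashed line is the median of all 14770 rows. The ringed rows are 4 in HFWD+sugar against chow, 1 in HFWD against chow and 0 in HFWD+sugar against HFWD.

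More of the opposite-strand rows beside the members were called than of the members themselves. The nearest opposite-strand row, a choice made after the values were seen, was tested for 76 such rows. In HFWD+sugar against chow 23 fell (30.3%, against 3.38% of all rows) and 2 rose, with a median log2 difference of -0.19. Among the 47 that averaged 400 units or more, 21 fell (44.7%), with a median of -0.35, against 9.16% of all 4126 rows at that level. Those that fell stood beside large subunit genes, such as Rpl3, Rpl5, Rpl7, Rpl8, Rpl24, Rpl30 and Rpl32, and small subunit genes, such as Rps3, Rps3a, Rps9, Rps14, Rps16, Rps21, Rps24 and Rps25. The 2 that rose were Vat1, beside Rpl27, and Smarcc2, beside Rpl41. With the highest opposite-strand row within 200 kb in its place, 19 of 76 fell (25%) and 2 rose, against 3.38% lower and 5.67% higher among all rows. Of these, 68 averaged 400 units or more, and 18 of the 68 fell (26.5%, against 9.16% of all rows at that level). The nearest same-strand row fell in 1 of 70 cases (1.43%) and rose in none. Of those 70 rows 16 averaged 400 units or more, and none of the 16 was called, so the same-strand and opposite-strand rows differ in level as well.

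Klhl35, beside Rps3, had 13130, 14327, 14668, 13669 and 14194 units in HFWD+sugar, 15861, 14890, 16980, 14636 and 15561 in HFWD, and 17033, 20659, 18259 and 24835 in chow. All chow livers were above all Western diet livers, and the log2 difference of HFWD+sugar against chow was -0.51 ± 0.10 (limma adjusted p = 0.0036). Zfp647, beside Rpl8, had 11494, 12983, 13015, 12410 and 12735 units in HFWD+sugar, 13877, 13361, 14974, 13342 and 13643 in HFWD, and 15352, 17560, 15770 and 17034 in chow. The 3 diets did not overlap, and its log2 difference of HFWD+sugar against chow was -0.39 ± 0.07 (adjusted p = 0.0036).

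Sh3d19, beside Rps3a, had 2579, 2632, 2853, 2659 and 2779 units in HFWD+sugar, 3048, 2921, 2978, 2848 and 3206 in HFWD, and 3372, 3919, 3548 and 3672 in chow, a log2 difference of HFWD+sugar against chow of -0.42 ± 0.07 (adjusted p = 0.0016). All its chow values were above all Western diet values. Dennd4c, beside Rps6, did not pass (-0.12 ± 0.26), with 30175 to 124992 units among the 4 chow livers. In HFWD against chow 7 of the 76 nearest opposite-strand rows fell (9.21%) and none rose, against 0.934% of all rows called lower. All 7 were among the 47 at 400 units or more (14.9%), against 2.23% of all rows at that level. Without chow 2 and chow 4, 17 of 76 fell in HFWD+sugar against chow (22.4%, against 4.7% of all rows), and 1 of 76 in HFWD against chow. With the 2 groups of that comparison fitted alone, or with each library centred on its median (0.596% of all rows lower), none of the 76 fell in HFWD against chow. Leaving out 1 liver at a time, 19 (without HFWD+sugar 4) to 24 fell in HFWD+sugar against chow and 0 (without HFWD 4) to 7 in HFWD against chow, with 1 without HFWD 1 or HFWD 2, 2 without chow 2 or HFWD+sugar 5, 3 without HFWD+sugar 2 or 4 and 4 without HFWD+sugar 3. In HFWD+sugar against HFWD none of the 76 was called (0%), with a median log2 difference of -0.12. Whether these rows carry reads of the ribosomal protein gene, of the gene in their name or of both was not tested.

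**Figure D4:**
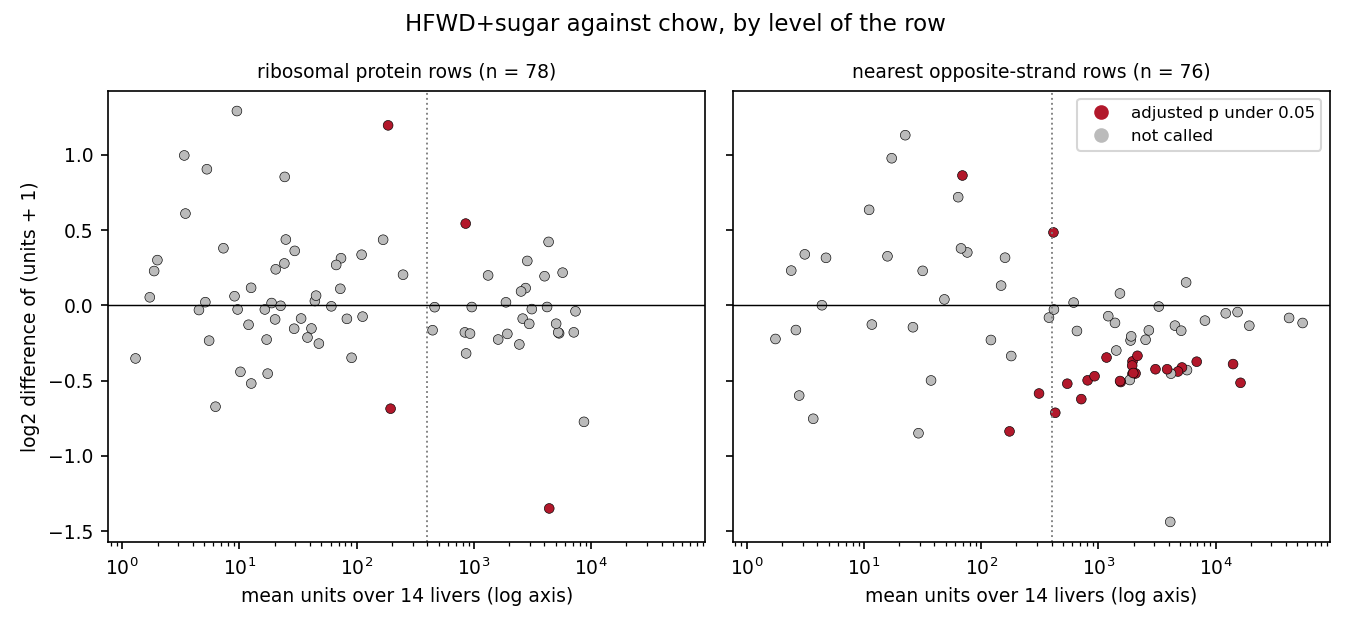
Log2 difference of (units + 1) in HFWD+sugar against chow by mean units over 14 livers (log axis), for 78 ribosomal protein rows (left) and 76 nearest opposite-strand rows (right), with called rows in red and a dotted line at 400 units. On the right 23 rows fell, 21 of them at 400 units or more, while on the left 2 fell and 2 rose.

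Summed, the 84 members held 0.396% to 0.410% of all units in HFWD+sugar, 0.380% to 0.410% in HFWD and 0.355% to 0.475% in chow. The chow range, from chow 4 to chow 2, took in all Western diet livers. Rplp2 and Rpl31 alone made up 9.31% to 13.8% of that sum in HFWD+sugar, 8.55% to 14.8% in HFWD and 10.7% to 26.5% in chow. Without them the shares were 0.352% to 0.365% in HFWD+sugar, 0.338% to 0.356% in HFWD and 0.317% to 0.355% in chow. The small subunit share was 0.146% to 0.158% in HFWD+sugar, 0.147% to 0.160% in HFWD and 0.140% to 0.156% in chow.

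Members with known roles beside the ribosome itself were not called. Rplp0, the scaffold of the stalk, had 59.1, 81.8, 62.6, 86.5 and 59.9 units in HFWD+sugar, 62.3, 33.2, 65.3, 34.8 and 21.7 in HFWD, and 56.5, 94.2, 57.6 and 75.4 in chow. Its levels overlapped in all 3 comparisons, with a log2 difference of -0.01 ± 0.31 in HFWD+sugar against chow. Rplp1, its partner, had a log2 difference of -0.09 ± 0.47 in that comparison. Rpl5 and Rpl11 bind the 5S ribosomal RNA and, when free, Mdm2. Rpl5 had 353, 530, 442, 452 and 391 units in HFWD+sugar, 431, 399, 500, 397 and 353 in HFWD, and 588, 333, 547 and 504 in chow (-0.17 ± 0.16 in HFWD+sugar against chow), while Rpl11 was at 17.5 units or less in every liver.

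Rpsa, also known as a laminin receptor, had 24.9, 16.9, 23.5, 29.7 and 36.5 units in HFWD+sugar, 37.4, 24.2, 33.3, 24.1 and 29.05 in HFWD, and 34.6, 59.1, 23.1 and 13.7 in chow, with full overlap. Rps6 had 77.6, 53.6, 53.4, 59.3 and 82.8 units in HFWD+sugar, 49.8, 80.0, 100.3, 75.0 and 81.9 in HFWD, and 30.7, 61.0, 61.9 and 68.5 in chow (0.27 ± 0.27 in HFWD+sugar against chow). Gnb2l1, which encodes the scaffold RACK1 on the head of the small subunit and falls outside the symbol rule, averaged 2818 ± 390 units in HFWD+sugar, 2853 ± 101 in HFWD and 2566 ± 145 in chow (SD; n = 5, 5 and 4) and was not called.

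Paralogues were set beside their partners per kb of exon. Rps27l had 4911 units per kb and Rps27 had 5.42. Rpl7 and Rpl7l1 were both abundant, at 1029 and 720 units per kb, and neither was called, with log2 differences of HFWD+sugar against chow of 0.11 ± 0.08 and 0.02 ± 0.12. Rpl22 and Rpl22l1 reached at most 59.4 and 21.2 units in any liver. Rpl3l, known from striated muscle, and Rpl3 averaged 2.12 and 3.87 units per kb. Rps4x averaged 27.0 units per kb. Rows this low rest on a few reads, and no order between them was read.

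Genes that make or serve the ribosome, in lists chosen with earlier results of these data known, were called at shares of 0% to 10% per list in HFWD+sugar against chow (9.05% of all rows) and 0% to 5.77% in HFWD against chow (3.38% of all rows). Of 52 tested ribosome biogenesis genes, 4 rose and 1 fell in HFWD+sugar against chow (9.62%), and 3 rose and none fell in HFWD against chow (5.77%), with medians of 0.11 and 0.03. Dkc1, the pseudouridine synthase dyskerin, averaged 3405 ± 154 units in HFWD+sugar, 3443 ± 335 in HFWD and 2427 ± 266 in chow (SD; n = 5, 5 and 4), and rose in both (0.49, limma adjusted p = 0.0030, and 0.51, adjusted p = 0.0036). Pes1, a large subunit assembly factor, rose in HFWD+sugar (1.51, limma adjusted p = 0.0075), at 61.7 ± 10.9 units against 22.6 ± 10.4 in chow, and Nhp2, a partner of Dkc1, rose in both (0.38, adjusted p = 0.0244 in HFWD+sugar, and 0.46, adjusted p = 0.0143 in HFWD).

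Of 20 genes for RNA polymerase I and rDNA transcription, 2 rose in HFWD+sugar and 1 in HFWD, and none fell. Taf1d, a subunit of the selectivity factor of RNA polymerase I, averaged 13025 ± 884 units in HFWD+sugar, 12237 ± 1006 in HFWD and 7858 ± 1214 in chow. Its log2 differences were 0.74 (limma adjusted p = 0.00019) and 0.65 (adjusted p = 0.0010). Tcof1, the nucleolar protein treacle, averaged 5015 ± 1086 units in HFWD+sugar, 3964 ± 415 in HFWD and 3335 ± 668 in chow, and rose in HFWD+sugar (0.58, limma adjusted p = 0.0274). The Tcof1 row is also one of the highest opposite-strand rows within 200 kb of a member, and the origin of its reads was not tested. Nor was the origin of the reads tested for Taf1d, Dkc1, Nhp2 or any other row of these lists.

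Of 22 elongation factors and other terminal oligopyrimidine mRNAs, 1 fell in HFWD+sugar, Hnrnpa1 (-0.32, limma adjusted p = 0.0112), and none was called in HFWD. None of 30 initiation factors was called in either comparison. Of 32 genes of the mTORC1 pathway, none was called in HFWD+sugar and 1 rose in HFWD, Eif4ebp1, the translation inhibitor that mTORC1 phosphorylates (0.78, limma adjusted p = 0.0308). Of 74 mitochondrial ribosomal protein rows, 3 rose and 1 fell in HFWD+sugar and 1 rose and 1 fell in HFWD. Mrps35 rose to 127 ± 11.8 units in HFWD+sugar and 107 ± 22.1 in HFWD, against 27.9 ± 19.6 in chow, and Mrps25 fell to 1313 ± 137 and 1392 ± 54.9, against 2013 ± 101 in chow (SD; n = 5, 5 and 4). In HFWD+sugar against HFWD no gene of these lists was called, as none of all rows was.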

How the data were processed

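Input was 1 table of 22850 gene rows and 14 libraries, with 0 further columns of values per sample. Its values are a normalized signal on a linear scale that the authors deposited. Per the submitters' processing notes, FastQC, TopHat2 2.0, SAMtools and build mm9 were used. Per the labels' protocols, total RNA was depleted of ribosomal RNA (Ribo-Zero Gold). The sources used here do not give the counting, its strand setting, the handling of multiple matches or the scaling. Whole reads could not be recovered, so no count-based test was run.

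All tests used log2(value + 1), and fold changes are on this scale, so those of low rows are understated. Rows had to exceed the floor of 1 in 4 or more libraries, which kept 14770. They were fitted with limma 3.58.1 in R 4.3.3 (1 model, 3 group means, 14 libraries, eBayes with a variance trend), with 2-sided tests and Benjamini-Hochberg adjustment over every row. "Rose", "fell" and "called" mean an adjusted p under 0.05. Errors of log2 differences are SE. TMM factors, trimmed means of log ratios, were computed on the deposited signal. The fit was also run on simulated data, which held no library scale shift and no outlying liver. No result here rests on that run.

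The members, the lists and the 400-unit level were chosen with earlier results of these data known. Named genes are all called members, the 4 highest of each subunit per kb, a panel with paralogues, the members nearest the threshold and the called list genes with the smallest p. For HFWD+sugar against HFWD, where none was called, they are the 3 highest and 3 lowest by p. Neighbours, members with groups that did not overlap and examples of low rows were picked once their values were known. Exon lengths, neighbours and 100-base windows came from the GENCODE annotation and genome of mm9, whose coordinates and strand matched 22438 rows. Figures were drawn with matplotlib 3.10.9. Alternatives were 3 scalings, 2 pseudocounts, 2 filters, sample weights, 2-group fits, leaving out chow 2 and 4, and each liver in turn. For subunit medians only, the highest opposite-strand rows within 200 kb were also set in place of the members. Some results for single members are not reported here.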

Additional observations from a re-analysis of the deposited data

Results flagged for a closer look

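Within 111 sets of 4 or 5 livers on 1 diet, a single liver stood apart from the others in 8, and chance gives about 1 in 20. Chow 4, the shallowest library, had 9878 units of Rps2, a protein beside the mRNA entry, against 6594 to 7098 in the other chow livers, and 2168 units of Rpl18 against 2718 to 2807. In HFWD+sugar, liver 4 had 59.4 units of Rpl22 (18.3 to 26.04 in the others), liver 1 had 43.5 units of Rpl39 (18.3 to 25.4), and liver 2 had 12.7 units of Rpl11 (2.60 to 4.95) and 2.82 of Rps27 (1 to 1.30). Chow 1 had 3.87 units of Rpl3l (1 to 1.49). HFWD 2 had a large subunit share of 0.260% of all units (0.227% to 0.235% in the other HFWD livers). The rows of Rpl11, Rps27 and Rpl3l rest on a few reads.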

How the results depend on the processing

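Over 24 alternatives each (25 for subunit medians), no result changed sign past the threshold. All rows called in HFWD+sugar against chow (1336) became 774 with no filter, 2174 with sample weights and 745 with 2 groups fitted; in HFWD against chow (499) they became 275 centred on the library median, 309 with no filter, 1021 with weights, 916 without chow 2 and 4, and 240 with 2 groups. Members called higher in HFWD+sugar against chow (2) became 1 centred, 4 under quantile normalization and 1 with no filter; those lower (2) became 7 centred, 1 with no filter, 6 with weights, 4 without chow 2 and 4 and 1 with 2 groups. In HFWD against chow, members higher (0) became 2 with rows of a mean of at least 50, 2 with weights and 1 without chow 2 and 4, and those lower (1) became 0 with no filter or 2 groups and 3 with weights. Without a filter the table tested 22850 rows, and Rpl31, Rpl28 and Rpl35a lost their calls (adjusted p in HFWD+sugar against chow 0.0509, 0.0787 and 0.0516, and for Rpl31 0.1496 in HFWD). With 2 groups, Rpl28 (0.0665) and Rpl31 in HFWD (0.0586) lost theirs. The causes were not tested.

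Large subunit medians moved in HFWD+sugar against chow to -0.19 centred, -0.076 quantile, 0.12 weighted, 0.16 without chow 2 and 4, and -0.21 with the highest opposite-strand row; in HFWD against chow to 0.075 without chow 2 and 4; and in HFWD+sugar against HFWD to -0.030 centred, 0.0034 at a mean of at least 50 and -0.12 with the opposite-strand row. Small subunit medians moved in HFWD+sugar against chow to -0.27 centred, -0.18 quantile, -0.11 with TMM and -0.0090 without chow 2 and 4. In HFWD against chow they moved to -0.050 centred and -0.060 quantile. In HFWD+sugar against HFWD they moved to -0.20 centred and -0.10 at a mean of at least 50. With the highest opposite-strand rows in place of the members, the medians are those of other rows. Beside large subunit members they were -0.21 in HFWD+sugar against chow and -0.12 in HFWD+sugar against HFWD. Beside small subunit members the median was 0.066 in HFWD against chow.

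Leaving out 1 liver gave 674 (without HFWD+sugar 4) to 1768 (without chow 4) rows called in HFWD+sugar against chow, 255 (without HFWD 4) to 1051 (without chow 4) in HFWD against chow, and 0 to 1 in HFWD+sugar against HFWD. Members called higher numbered 2 to 3 and lower 1 to 4 in HFWD+sugar against chow, and 0 to 1 and 0 to 4 in HFWD against chow, with the most lower calls without chow 4. Large subunit medians ran from -0.013 to 0.14 and small from -0.090 to 0.0015 in HFWD+sugar against chow, small from -0.050 to 0.044 in HFWD against chow. Rpl12, Rpl31 and Rpl35a kept their calls in HFWD+sugar against chow in all 14. No paired analysis was made, because the labels pair no livers across diets. Depth, at an estimated 2.47 to 6.85 units per read, limits rows below about 20 units to a few reads.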
